A study of Mus musculus with 33 samples.

Results

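Aminoacyl-tRNA synthetases were followed in 3 populations of old mice, the hematopoietic stem cells (HSCs), the lymphoid progenitors called CLPs (common lymphoid progenitors) and the myeloid progenitors called GMPs (granulocyte-monocyte progenitors). The genes were chosen by symbol alone, as the single-letter amino acid code followed by "ars" with an optional 1 or 2, plus Eprs, Ears2, Farsa, Farsb and Fars2. This rule took 37 of the 55376 gene symbols counted, and all 37 passed the filter on low counts in every comparison. Of these, 18 encode cytosolic enzymes, 17 encode mitochondrial enzymes, and Gars and Kars encode both forms.

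Each synthetase joins 1 amino acid to the tRNAs that carry its anticodons, and the charged tRNA then brings that amino acid to the ribosome. The cytosol and the mitochondrion make protein with separate tRNAs, so that most amino acids need a nuclear gene for each compartment, while a single gene serves both for glycine and for lysine. Several cytosolic synthetases sit together in the multisynthetase complex, among them the bifunctional Eprs, which charges both glutamic acid and proline. Many cytosolic synthetase genes are known targets of ATF4, the transcription factor of the integrated stress response, which binds a composite site called the C/EBP-ATF response element (CARE). HSCs are known for a low rate of protein synthesis, which rises as they give way to progenitors.

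The animals were male C57BL/6 mice 24 to 29 months old. O-WT mice were untreated, O-NR mice drank water with nicotinamide riboside (NR), a vitamin B3 form from which cells make NAD+, and O-NR-RC mice were taken off NR again before cells were collected, which the labels call reversal. Total RNA of sorted bone marrow cells gave 33 libraries, 24 in cohort 2, which holds 4 O-WT and 4 O-NR libraries for each of HSC, CLP and GMP, and 9 HSC libraries in cohort 1, with 2 untreated (O-WT), 4 NR-treated (O-NR) and 3 withdrawn (O-NR-RC). The labels do not say whether a library is a single mouse, so that p-values measure the spread between libraries, which may be technical. Nor do they say whether same-numbered libraries of the 3 cell types came from the same mice, although the deposited names share a number across cell types, and cell types were compared as if they were separate. With that number as a block, 28 synthetases were called between GMPs and HSCs, 4 between CLPs and HSCs and 26 between GMPs and CLPs. The shares of all genes called with the block are not given here. A label field calls the GMP libraries common myeloid progenitors. In bulk RNA, fewer cells of a type and less RNA per cell cannot be told apart.

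Promoter sequences were available for 27 of the 37 genes, from RefSeq (GRCm38.p6), as windows of 300 bases that run from 250 before the start of transcription to 50 after it. The CARE core, TGATGNAA or its reverse complement TTNCATCA, was found in 5 of these 27 genes (18.5%), against 4.51% of 27025 genes with such a window. All 5 encode cytosolic enzymes or, for Gars, both forms, and the core was in none of the 14 mitochondrial genes with a window. The 5 are shown because their RNA levels are compared between cell types below, each from 150 bases before the start to 30 after it, 5′ to 3′ on the strand of the gene, with the core in capitals. They charge alanine (Aars), glycine (Gars), isoleucine (Iars), threonine (Tars) and tyrosine (Yars).
Aars (chr8:111033692-111033871, plus strand): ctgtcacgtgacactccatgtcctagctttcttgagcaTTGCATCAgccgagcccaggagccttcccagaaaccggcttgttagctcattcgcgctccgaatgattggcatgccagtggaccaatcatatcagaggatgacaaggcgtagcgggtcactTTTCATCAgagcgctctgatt
Gars (chr6:55037851-55038030, plus strand): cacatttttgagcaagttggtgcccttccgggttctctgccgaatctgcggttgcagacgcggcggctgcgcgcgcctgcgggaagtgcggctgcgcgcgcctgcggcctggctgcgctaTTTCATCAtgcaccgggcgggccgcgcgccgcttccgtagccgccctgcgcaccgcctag
Iars (chr13:49681980-49682159, plus strand): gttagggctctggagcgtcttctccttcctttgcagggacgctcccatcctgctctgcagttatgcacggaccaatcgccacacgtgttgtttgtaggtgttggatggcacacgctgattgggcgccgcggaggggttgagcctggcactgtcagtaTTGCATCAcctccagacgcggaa
Tars (chr15:11399629-11399808, minus strand): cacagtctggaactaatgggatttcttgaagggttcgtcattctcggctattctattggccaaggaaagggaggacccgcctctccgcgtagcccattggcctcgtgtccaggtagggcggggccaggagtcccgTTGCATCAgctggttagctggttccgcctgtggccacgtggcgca
Yars (chr4:129189753-129189932, plus strand): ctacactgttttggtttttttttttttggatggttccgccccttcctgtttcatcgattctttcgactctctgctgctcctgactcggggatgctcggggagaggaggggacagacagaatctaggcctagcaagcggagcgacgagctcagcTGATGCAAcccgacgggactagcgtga
The core began 30 bases before the start in Gars and 15 before it in Tars, 7 bases after it in Iars and 3 after it in Yars, and in Aars at 2 places, 112 bases before and 9 after. Only the Yars core was in the TGATGNAA orientation. The E-box CACGTG, which reads the same on both strands, was in 5 of the 27 genes (18.5%) against 8.09% of all genes, the NRF1 motif in 5 against 5.19%, and the ETS motif CCGGAAG in 9 (33.3%) against 9.93%, each counted on both strands. A match gives the letters present in a window, and binding was not measured.

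Levels of different genes were compared as RPKM, which is the depth-scaled count (CPM) divided by the exon length in kilobases. This length joins all annotated exons of a gene, and the order of genes depends on it. It was 18102 bases for Eprs, 11294 for Mars2 and 5608 for Vars. In O-WT HSCs of cohort 2 the 20 genes of cytosolic or dual enzymes had a median of 11.5 RPKM, and the 17 mitochondrial genes a median of 3.72 RPKM. Vars (valine) was highest in O-WT HSCs with 34.9 ± 12.4 RPKM (SD, n = 4). Gars followed with 19.2 ± 4.48 RPKM, Kars with 17.6 ± 5.02 RPKM, Dars with 16.7 ± 4.74 RPKM and Lars2, the mitochondrial leucine enzyme, with 15.3 ± 4.47 RPKM, and these 4 did not differ beyond their spread. Mars2, for mitochondrial methionine, was lowest with 1.70 ± 0.423 RPKM. Without division by length the order differed. Eprs was at 238, 138, 182 and 214 CPM in these libraries and Vars at 287, 124, 166 and 206 CPM. Mars2 was at 24.9, 14.9, 15.7 and 21.3 CPM, above Pars2 (mitochondrial proline) at 10.1, 6.23, 7.13 and 7.02 CPM. In O-WT GMPs the medians were 26.0 RPKM for cytosolic and dual genes and 5.85 RPKM for mitochondrial genes, and Gars with 47.97 ± 6.15 RPKM, Nars (asparagine) with 47.3 ± 5.49 RPKM, Vars with 42.1 ± 5.23 RPKM and Kars with 40.8 ± 4.87 RPKM were the 4 highest, with no gap between neighbours beyond their spread. Wars2, for mitochondrial tryptophan, was lowest there with 1.95 ± 0.344 RPKM. In O-WT CLPs the medians, 11.4 and 4.26 RPKM, lay close to those of HSCs, with Vars again highest at 27.6 ± 7.32 RPKM and Nars2 lowest at 1.96 ± 0.247 RPKM. In the Gencode annotation 17 of the 37 genes have another gene over them on the opposite strand and 8 on the same strand, and the strand setting of the counts is not given, so that their counts may hold reads of these neighbours. The synthetases were counted with at least 60 reads in every library, and in cohort 2 with up to 6593 reads, for Eprs in a GMP library.

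**Figure D1:**
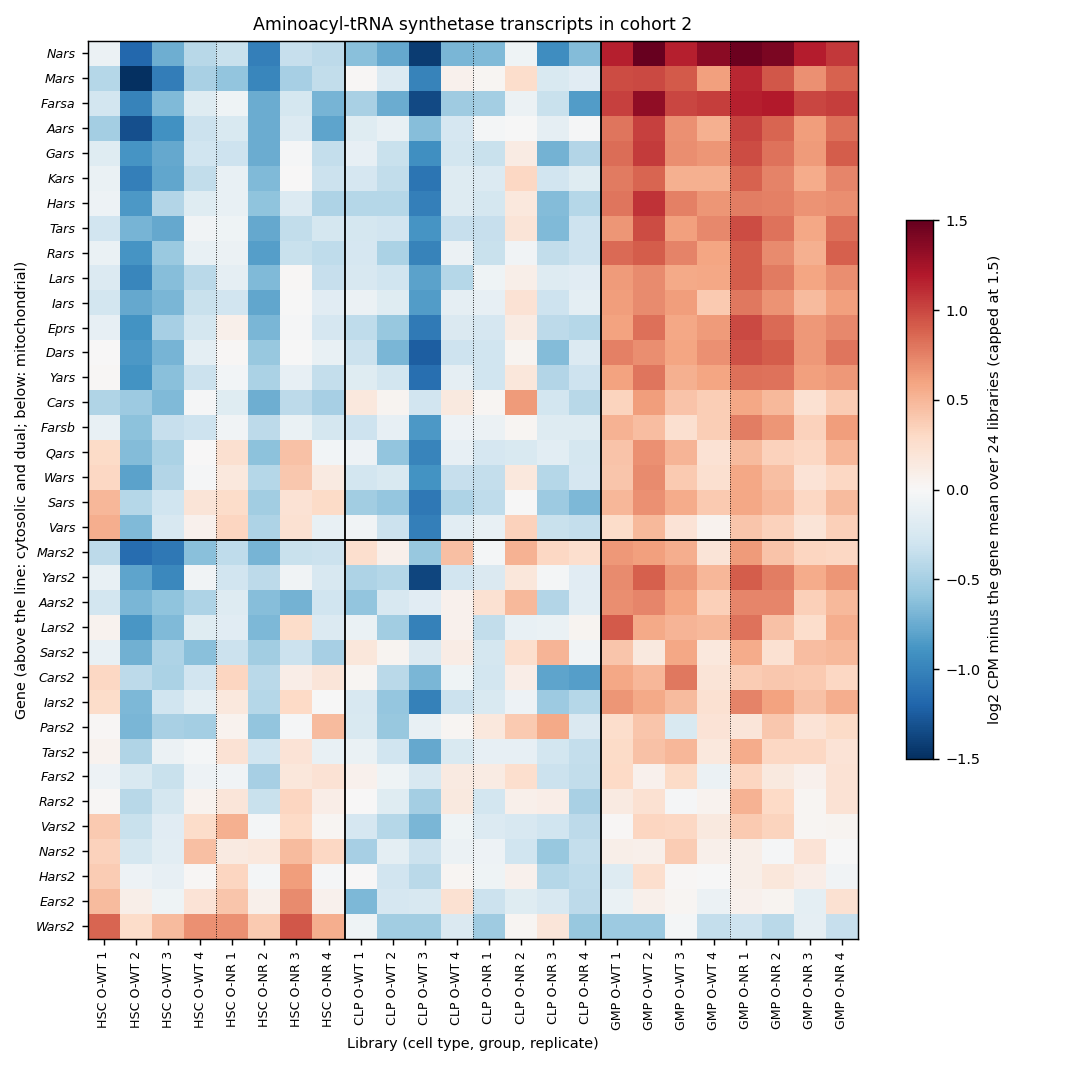
Levels of 36 of the 37 synthetase genes (rows) in the 24 libraries of cohort 2 (columns), as log2 CPM minus the mean of the gene over these libraries, with colours capped at 1.5 in either direction and a line between the cytosolic and dual genes above and the mitochondrial genes below. The 8 GMP columns are higher than the HSC and CLP columns for most cytosolic genes, while Wars2 has its highest columns in HSC.

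Counted reads per library ranged from 4792380, in CLP O-WT replicate 3, to 23816042. The sorted cells carried their own marker sets, with summed HSC markers at 1392 to 2638 CPM in O-WT HSCs against 349 to 397 in O-WT GMPs, CLP markers at 1669 to 3678 CPM in O-WT CLPs against 28.7 to 37.7 in HSCs, and GMP markers at 18397 to 23272 CPM in GMPs against 73.8 to 140.2 in HSCs. Markers of other cells differed too. The 7 mature neutrophil markers summed to 11.7 to 13.0 CPM in O-WT HSCs, 41.7 to 184 in O-WT CLPs, 13.9 to 142 in O-NR CLPs and 21.8 to 52.4 in O-WT GMPs, all 7 with a higher mean in O-WT CLPs than in O-WT HSCs. GMP markers stood at 233 to 426 CPM in O-WT CLPs, mostly Mpo, and their part and that of the neutrophil markers in the CLP comparisons was not tested. Genes of B and plasma cells reached 747 CPM in HSC O-WT replicate 4 and 55.6 CPM at the lowest in that group, and their part in the results was not tested beyond leaving that library out. The summed CPM of 1971 olfactory and vomeronasal receptor genes, which blood cells are not known to use, differed between libraries of 1 group and between the groups. It was 1782 to 3365 CPM in O-WT HSCs, 2737 to 4960 in O-WT CLPs, 1088 to 2509 in O-WT GMPs and 6622 to 11687 over cohort 1. The summed CPM of the 20 cytosolic and dual synthetases was 1663, 922, 1120.2 and 1461 in O-WT HSCs and 1647, 1055, 1649.9 and 1403 in O-NR HSCs of cohort 2, and these 8 libraries stood in exactly the reverse order by the receptor sum.

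**Figure D2:**
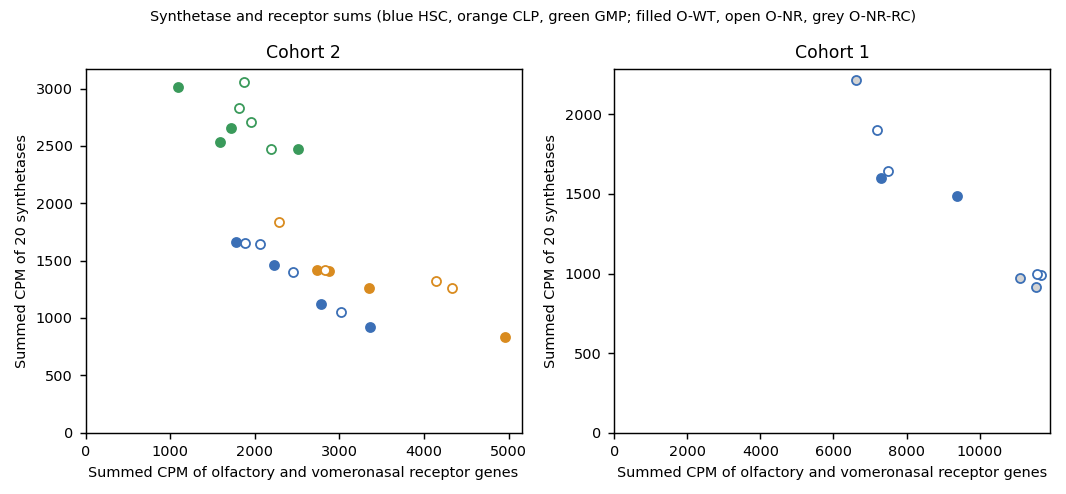
Summed CPM of the 20 cytosolic and dual synthetase genes (y axis) against the summed CPM of 1971 olfactory and vomeronasal receptor genes (x axis), 1 point per library, cohort 2 on the left and cohort 1 on the right (blue HSC, orange CLP, green GMP, filled O-WT, open O-NR, grey O-NR-RC). The HSC libraries of cohort 2 fall along a descending line, the CLP, GMP and cohort 1 libraries follow it with exceptions, and the GMP libraries lie above the HSC libraries with a similar receptor sum.

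To ask how synthetase transcripts differ between stem cells and myeloid progenitors, O-WT GMPs were compared with O-WT HSCs. In GMPs 28 synthetases were higher and 1 was lower (edgeR quasi-likelihood test, Benjamini-Hochberg adjusted p below 0.05 over 22573 genes), where 18.6% of all genes were higher and 20% lower. The median log2 fold change was 0.84 over the synthetases and -0.32 over all genes. Of the 20 cytosolic and dual genes 18 were higher, with a median of 1.13, and of the 17 mitochondrial genes 10 were higher and 1 was lower, with a median of 0.57. Groups did not overlap for 23 higher and 1 lower synthetase, where 24.8% of all genes stood apart as higher and 21.3% as lower.

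Nars had the largest difference. It stood at 78.7, 36.98, 50.2 and 62.7 CPM in the 4 O-WT HSC libraries and at 187, 236, 187 and 214 CPM in the 4 O-WT GMP libraries (log2 fold change 1.85, SE 0.23, adjusted p = 7.79e-10). Every GMP library was above every HSC library, and the fitted difference was 3.60-fold. Mars, which charges both initiator and elongator methionine tRNAs (chr10:127296221-127311786, mm10), was at 38.1, 18.3, 25.1 and 36.6 CPM in HSCs and at 101, 102, 97.3 and 78.96 CPM in GMPs (log2 fold change 1.68, SE 0.22, adjusted p = 4.02e-09). Farsa, the catalytic alpha subunit of the phenylalanine enzyme (chr8:84856989-84869257), was at 46.6, 28.1, 35.8 and 49.5 CPM in HSCs and at 114, 142, 113 and 116 CPM in GMPs (log2 fold change 1.60, SE 0.21, adjusted p = 6.60e-09). Neither gene overlapped between the groups. Farsb, the beta subunit of the same enzyme (chr1:78417975-78488897), was at 38.6, 27.2, 32.6 and 33.6 CPM in HSCs and at 59.6, 57.3, 49.3 and 53.8 CPM in GMPs (log2 fold change 0.74, SE 0.19, adjusted p = 0.00104). Its groups did not overlap either, and its fold was 1.67 against 3.03 for Farsa, a difference between subunits that was not tested.

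Among the genes whose promoters are printed above, Aars (chr8:111033144-111057664) was at 42.1, 24.2, 32.01 and 48.3 CPM in HSCs and at 105, 122, 96.9 and 87.05 CPM in GMPs (log2 fold change 1.49, SE 0.20, adjusted p = 1.72e-08). Gars (chr6:55038007-55079500) was at 74.5, 45.95, 49.9 and 68.8 CPM in HSCs and at 152, 176, 137 and 134 CPM in GMPs (log2 fold change 1.32, SE 0.21, adjusted p = 6.62e-07). Tars was at 54.2, 40.9, 38.9 and 63.9 CPM in HSCs and at 105, 130.3, 101 and 109 CPM in GMPs (log2 fold change 1.17, SE 0.21, adjusted p = 4.79e-06). All 3 were higher in every GMP library than in any HSC library. Iars and Yars were higher too, by 1.10 and 1.06 on the log2 scale. The 12 genes of a list of known ATF4 targets included 11 that were higher, with a median log2 fold change of 1.13, and the 8 other cytosolic and dual genes included 7, with a median of 1.11. Sars (serine), the listed gene that did not pass, had a log2 fold change of 0.50 (adjusted p = 0.0508, edgeR).

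All 8 synthetases of the multisynthetase complex were higher in GMPs, with a median log2 fold change of 1.13, and 10 of the 12 cytosolic and dual genes outside it were higher, with a median of 1.11. Eprs was at 238, 138, 182 and 214 CPM in HSCs and at 391, 459, 385 and 400.2 CPM in GMPs (log2 fold change 1.08, SE 0.22, adjusted p = 6.22e-05). Kars, which serves both compartments and is held in the complex as its cytosolic form, was at 106, 55.8, 65.7 and 87.3 CPM in HSCs and at 194, 207, 164 and 164 CPM in GMPs (log2 fold change 1.21, SE 0.22, adjusted p = 6.32e-06). Both were higher in each GMP library than in any HSC library. Qars, the glutamine enzyme of the complex, was at 95.1, 49.5, 56.03 and 78.5 CPM in HSCs and at 105, 126, 111 and 90.9 CPM in GMPs (log2 fold change 0.63, SE 0.22, adjusted p = 0.0165). Its groups overlapped, since the highest HSC library was above the lowest GMP library. Lars, Rars, Iars and Dars, for leucine, arginine, isoleucine and aspartic acid, had log2 fold changes of 1.15, 1.16, 1.10 and 1.06.

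Outside the complex, Hars (histidine) was higher by 1.19 and Cars (cysteine) by 0.84 on the log2 scale. Wars, the cytosolic tryptophan enzyme, was at 53.4, 24.7, 31.8 and 42.5 CPM in HSCs and at 57.1, 69.9, 56.1 and 50.6 CPM in GMPs (log2 fold change 0.62, SE 0.21, adjusted p = 0.0146), and 1 HSC library lay within the GMP range. Vars was at 287, 124, 166 and 206 CPM in HSCs and at 237, 275, 227 and 205 CPM in GMPs, which overlapped (log2 fold change 0.27, SE 0.23, adjusted p = 0.354). The 95% interval of its log2 difference was -0.19 to 0.74.

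**Figure D3:**
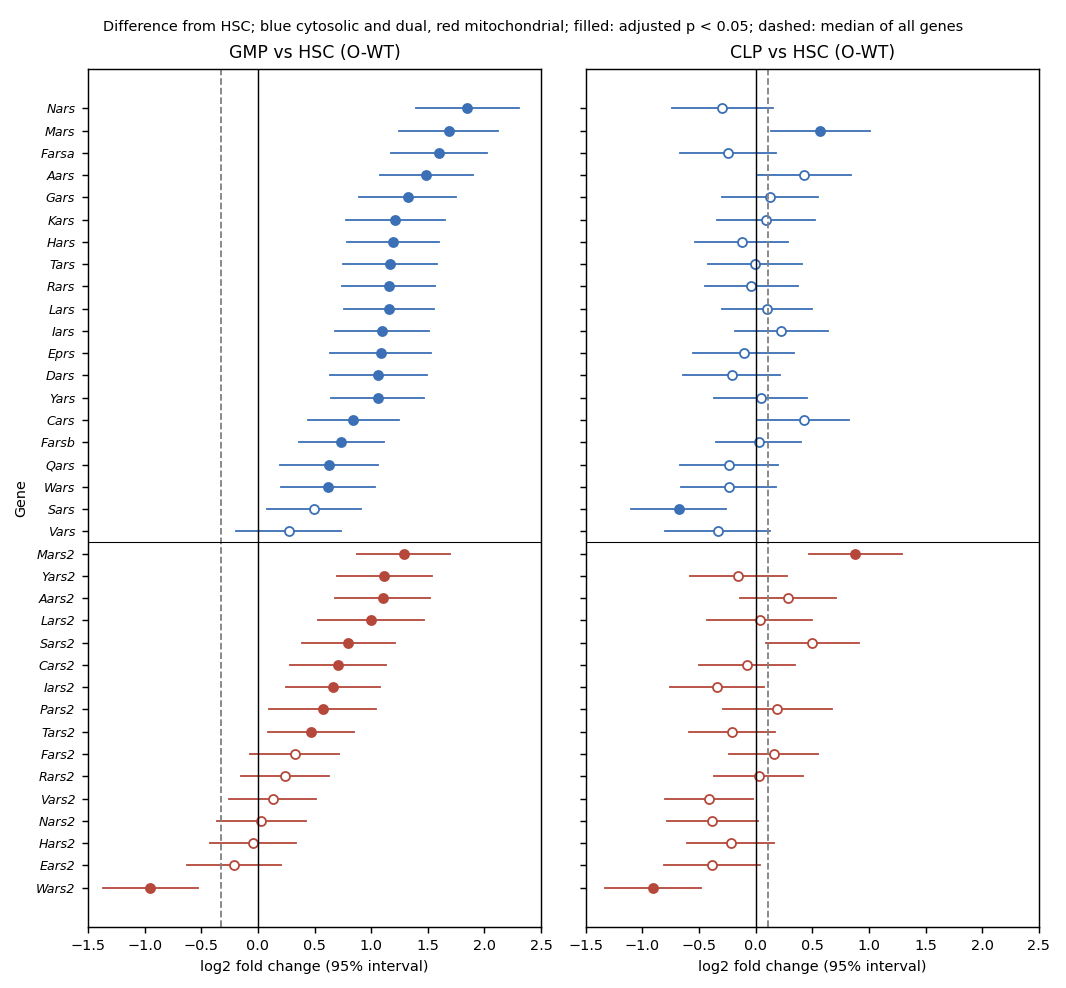
Log2 fold change with its 95% interval for 36 of the 37 synthetases, GMP against HSC and CLP against HSC, both in O-WT libraries (n = 4 per group, blue cytosolic and dual, red mitochondrial), with filled points at an adjusted p below 0.05 and dashed lines at the median of all genes tested (-0.32 and 0.11). Most points of GMP against HSC are filled and to the right of 0, with Wars2 alone filled on the left, while CLP against HSC has 4 filled points.

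Mitochondrial enzymes were found on both sides. Lars2 (chr9:123366927-123462666) was at 227, 119.7, 139 and 194 CPM in HSCs and at 417, 325, 312 and 307 CPM in GMPs (log2 fold change 1.00, SE 0.23, adjusted p = 0.000374). Mars2 (chr1:55237177-55248470) was at 24.9, 14.9, 15.7 and 21.3 CPM in HSCs and at 51.7, 50.2, 48.02 and 37.5 CPM in GMPs (log2 fold change 1.29, SE 0.20, adjusted p = 4.97e-07). Both groups of libraries stood apart for both genes. The mouse Lars2 transcript is known to hold a stretch that resembles ribosomal RNA, and the rRNA-like row Gm26917 is therefore given beside it. This row was at 50921, 25868, 31541 and 41545 CPM in O-WT HSCs and at 55331, 60272, 58995 and 37962 CPM in O-WT GMPs, which overlapped. Within the O-WT HSC libraries Lars2 and Gm26917 stood in the same order, as they did within the O-WT CLP libraries, while within the O-WT GMP libraries they did not. In the O-WT HSC and O-WT CLP libraries the summed cytosolic and dual CPM stood in that order too. The order there is therefore not particular to Lars2. Another rRNA-like row, Gm42418, was at 13237, 6010, 7450 and 9941 CPM in O-WT HSCs. In O-WT GMPs it was at 19045, 15580, 17464 and 12646 CPM, which overlapped. It stood in the order of Lars2 within O-WT HSCs, O-WT CLPs and O-NR GMPs, but not within O-NR HSCs, O-NR CLPs or O-WT GMPs. In O-WT GMPs both were highest in replicate 1 and lowest in replicate 4. Gm42418 was at 0 CPM in all of cohort 1. The part of rRNA-like reads in the Lars2 counts was not tested. Yars2 and Aars2, for mitochondrial tyrosine and alanine, were higher by 1.12 and 1.10 on the log2 scale, and Sars2, Cars2, Iars2, Pars2 and Tars2 by 0.47 to 0.80. Wars2 (chr3:99141068-99239186) went the other way. It was at 27.1, 17.9, 20.7 and 23.9 CPM in HSCs and at 10.2, 10.2, 14.5 and 11.6 CPM in GMPs (log2 fold change -0.95, SE 0.21, adjusted p = 0.000175), with every GMP library below every HSC library. In the O-NR mice it was at 23.9, 19.5, 28.4 and 21.7 CPM in HSCs and at 11.96, 11.3, 13.5 and 11.7 CPM in GMPs, again without overlap. The other 6 mitochondrial genes, Fars2, Rars2, Vars2, Nars2, Hars2 and Ears2, ranged from -0.21 to 0.32 and did not pass the test.

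In the O-NR libraries, which are separate from the O-WT libraries, 23 synthetases stood apart as higher in GMPs and 1, Wars2, as lower, where 24.3% of all genes stood apart as higher and 24.2% as lower. Nars was at 65.99, 41.04, 65.8 and 63.8 CPM in O-NR HSCs and at 231, 223, 189 and 175 CPM in O-NR GMPs. With the receptor sum as a covariate, an alternative chosen after the data were seen, 22 synthetases were higher in O-WT GMPs and 1 was lower, and the median was 0.72. Without HSC O-WT replicate 4, the library with the most B and plasma cell transcripts, 28 were higher and 1 was lower. The shares of all genes called with this covariate and without this library, and the medians of all genes, are not given here.

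Against CLPs, the progenitors of lymphocytes, O-WT GMPs had 26 synthetases higher and none lower (edgeR, adjusted p below 0.05), where 24.1% of all genes were higher and 32.1% lower. This comparison and the one with HSCs share the GMP libraries. The median log2 fold change was 0.86 over the synthetases and -0.42 over all genes, with 19 of 20 cytosolic and dual genes higher (median 1.12) and 7 of 17 mitochondrial genes (median 0.41). Nars was at 54.2, 49.1, 31.04 and 51.8 CPM in CLPs, below all GMP libraries (log2 fold change 2.14, SE 0.23, adjusted p = 4.19e-11). Farsa was at 40.1, 33.6, 22.1 and 39.1 CPM in CLPs, again below all GMP libraries (log2 fold change 1.85, SE 0.21, adjusted p = 5.03e-10). Both genes had their lowest O-WT library in CLPs. Hars was at 34.2, 34.4, 22.6 and 40.4 CPM in CLPs and at 80.3, 97.8, 77.7 and 72.9 CPM in GMPs (log2 fold change 1.32, SE 0.20, adjusted p = 6.08e-07). Dars was at 75.3, 58.9, 40.1 and 75.99 CPM in CLPs and at 159, 154, 142 and 152 CPM in GMPs (log2 fold change 1.28, SE 0.22, adjusted p = 3.64e-06). Yars2 led the mitochondrial genes with 14.6, 14.9, 7.73 and 16.4 CPM in CLPs and 32.7, 37.2, 31.8 and 28.3 CPM in GMPs (log2 fold change 1.27, SE 0.21, adjusted p = 3.15e-06), and none of these 5 genes overlapped between the groups. Groups stood apart for 28 synthetases, all higher in GMPs and among them all 20 cytosolic and dual genes, where 30.7% of all genes stood apart as higher and 19.5% as lower.

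Of the genes followed in every comparison, Gars, Kars, Eprs, Qars, Farsb, Wars and Lars2 were all higher in GMPs than in CLPs, with log2 fold changes of 1.20, 1.12, 1.19, 0.86, 0.71, 0.86 and 0.97. Cars was the cytosolic gene that did not pass (log2 fold change 0.42, adjusted p = 0.0664, edgeR). Wars2 was at 14.2, 10.3, 10.3 and 12.8 CPM in CLPs, within and around the GMP range (log2 fold change -0.04, 95% interval -0.47 to 0.39). The receptor sums of O-WT CLPs and O-WT GMPs did not overlap, so that the receptor sum and the cell type cannot be told apart here. With the receptor sum as a covariate 13 synthetases were higher in GMPs and none was lower (median 0.35), while the number of all genes called went from 12689 to 3911. Upper quartile scaling called 23 synthetases higher and 2 lower, and the share of all genes that it called is not given here.

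Few synthetases passed the test between CLPs and HSCs. Of the 37 genes 2 were higher in O-WT CLPs and 2 were lower (edgeR, adjusted p below 0.05), where 9.38% of all genes were higher and 16.7% lower, and the median log2 fold change was -0.04 against 0.11 over all genes. Mars2 was at 39.1, 34.6, 22.1 and 44.97 CPM in CLPs, against the HSC values above (log2 fold change 0.88, SE 0.20, adjusted p = 0.000562). Its groups overlapped, since the lowest CLP library was below the highest HSC library. Mars was at 51.8, 44.4, 25.6 and 53.6 CPM in CLPs (log2 fold change 0.57, SE 0.22, adjusted p = 0.0428), with an overlap of the same kind. Wars2 was lower in CLPs (log2 fold change -0.91, SE 0.21, adjusted p = 0.000548), with all 4 CLP libraries below all 4 HSC libraries. Sars was at 81.99, 43.2, 47.3 and 66.7 CPM in HSCs and at 40.5, 38.9, 27.5 and 42.3 CPM in CLPs (log2 fold change -0.68, SE 0.21, adjusted p = 0.0105), also without overlap. No synthetase stood apart as higher, against 9.38% of all genes, and these 2 stood apart as lower, against 16%.

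Nars, the gene with the largest difference between GMPs and either other population, had a log2 fold change of -0.29 between CLPs and HSCs (95% interval -0.74 to 0.15). Gars, Kars, Eprs, Qars, Farsa, Farsb, Wars and Lars2 had log2 fold changes of 0.12, 0.09, -0.11, -0.23, -0.24, 0.03, -0.24 and 0.03, none past the threshold. The call of Mars was lost with DESeq2 (0.58), with other filters on low counts and in 5 of 8 fits that left out a library. That of Sars was lost with the receptor sum as a covariate (-0.37) and in the contrast within O-NR (-0.48). Leaving out HSC O-WT replicate 4 or CLP O-WT replicate 3 gave 5 synthetases higher and 2 lower. Upper quartile scaling, which moved the median of all genes by 0.24, called 13 synthetases higher and 2 lower with a median of 0.21. The median of all genes was positive before this upward shift, so that it lay above the synthetase median after it. With the receptor sum as a covariate 10 synthetases were called higher and 1 lower. The shares of all genes called in these alternatives are not given here. In the O-NR mice, Wars2 was at 10.3, 15.2, 16.9 and 10.01 CPM in CLPs, below the O-NR HSC values above, and 4 synthetases stood apart as higher and 4 as lower (Wars2, Nars2, Ears2 and Vars2), where 11.8% of all genes stood apart as higher and 18.1% as lower.

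**Figure D4:**
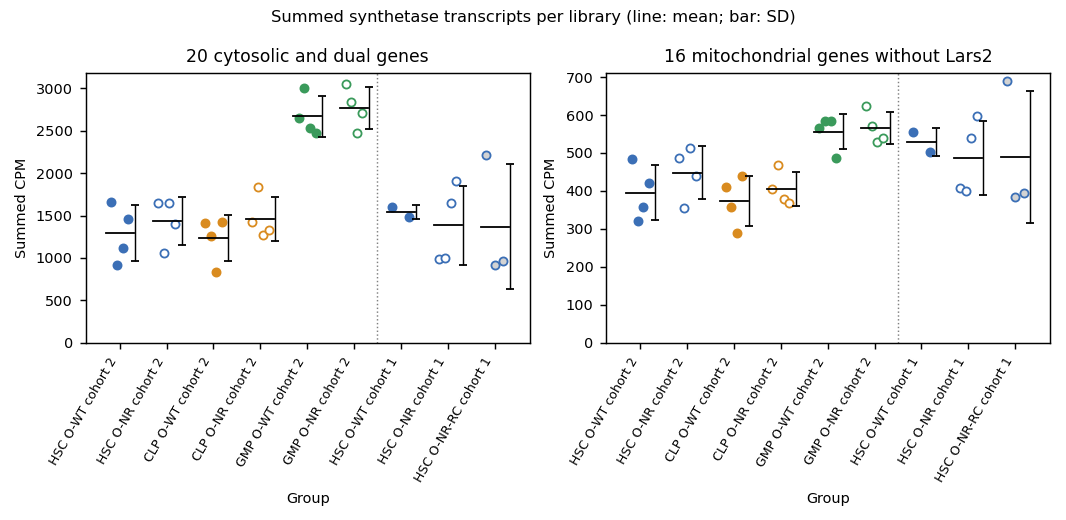
Summed CPM per library of the 20 cytosolic and dual synthetase genes and of the 16 mitochondrial genes without Lars2, which is left out for its rRNA-like stretch, in the 9 groups (filled O-WT, open O-NR, grey O-NR-RC), with the mean as a line and the SD as a bar beside the points. The cytosolic and dual sum is 2473 to 3058 in the 8 GMP libraries, above all other libraries of cohort 2, and O-NR and O-WT libraries overlap in each cell type.

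To compare the compartments without the scaling factor of each library, log2 ratios of cytosolic to mitochondrial CPM were taken, a measure chosen after the data were seen. They covered the 14 amino acids whose cytosolic and mitochondrial genes differ in symbol only by an added 2. Phenylalanine, glutamic acid and proline also have genes of each kind and were left out. Their cytosolic genes are Farsa, Farsb and Eprs, and their mitochondrial genes are Fars2, Ears2 and Pars2. Other differences between libraries remain in such ratios. The ratio of the summed CPM, without Lars2, was 3.44, 2.88, 3.14 and 3.47 in O-WT HSCs, lowest in the library with the highest receptor sum. In O-WT GMPs it was 4.68, 5.16, 4.33 and 5.09, where this did not hold. The part of the receptor sum in the ratios was not tested. Between O-WT GMPs and O-WT HSCs, 8 of the 14 ratios were higher in GMPs and none was lower at the smallest p that a two-sided exact permutation test of 4 against 4 libraries can give (p = 0.0286, not adjusted). In O-NR libraries 11 were higher and none was lower at that p. This p is reached where the groups do not overlap. Among single genes of the O-WT comparison, 24.8% stood apart as higher and 21.3% as lower. No share was taken over pairs of other genes, and the ratios share libraries, so that they are not separate observations. For asparagine the log2 ratio of Nars to Nars2 was 1.55 ± 0.23 in HSC and 3.36 ± 0.27 in GMPs (SD, n = 4). For tryptophan the log2 ratio of Wars to Wars2 was 0.68 ± 0.22 in HSC and 2.15 ± 0.34 in GMPs, and here the cytosolic gene was higher while the mitochondrial gene was lower. For histidine the log2 ratio of Hars to Hars2 was 0.19 ± 0.24 in HSC and 1.39 ± 0.14 in GMPs. These genes lie head to head and overlap only at their starts (chr18:36783008-36783205). Reads in that stretch may not be told apart if strand was not used in counting. For leucine and serine the log2 ratios were -1.43 ± 0.13 in HSC and -1.30 ± 0.20 in GMPs and 2.20 ± 0.29 in HSC and 2.02 ± 0.22 in GMPs, which did not pass (exact permutation p = 0.314 and 0.286). Between O-WT CLPs and O-WT HSCs 2 ratios were higher at the smallest p (Wars and Iars) and 2 were lower, among them that of Sars.

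Other genes of tRNA charging and translation were taken from lists. Their counts between O-WT GMPs and O-WT HSCs stand against 18.6% of all genes higher and 20% lower. The 3 scaffold genes of the multisynthetase complex, Aimp1, Aimp2 and Eef1e1, were all higher in GMPs, by 0.65 to 1.05 on the log2 scale. Of 4 genes of the mitochondrial glutaminyl-tRNA amidotransferase and the methionyl-tRNA formyltransferase none passed (Qrsl1 0.51, Mtfmt 0.49). Of 32 genes of tRNA processing and modification that were tested, 12 were higher and none was lower, among them Nsun2 (log2 fold change 1.20, SE 0.23, adjusted p = 2.47e-05), a tRNA and mRNA cytosine methyltransferase, and Trmt6 (log2 fold change 1.18, SE 0.20, adjusted p = 1.58e-06), a subunit of a tRNA adenine methyltransferase. Of 5 cytosolic elongation factor genes 2 were higher, Eef1g (0.79) and Eef1d (0.73), and of 9 mitochondrial translation factor genes 3 were higher, among them Tufm (1.33), which carries charged tRNA to the mitochondrial ribosome, and Gfm1 (1.24). Of 7 synthetase relatives and proofreading genes 2 were higher and 1 was lower. Atf4 itself was higher (log2 fold change 1.10, SE 0.22, adjusted p = 4.41e-05, edgeR). Of 23 listed ATF4 targets outside the synthetases 11 were higher and 4 were lower, with values from -4.80 for Nupr1 to 2.93 for Slc7a5, a subunit of the transporter of large neutral amino acids.

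Against CLPs, where 24.1% of all genes were higher in GMPs and 32.1% lower, GMPs had 1 of 3 scaffold genes, 2 of 4 amidotransferase and formyltransferase genes, 4 of 7 relatives, 5 of 5 cytosolic elongation factors, 6 of 9 mitochondrial translation factors and 23 of 32 tRNA modification genes higher and none lower, with medians of 0.39, 0.52, 0.49, 1.05, 0.54 and 0.59 on the log2 scale. Atf4 was higher (1.10), as were 10 of its 23 listed targets, and 4 targets were lower. Between CLPs and HSCs, where 9.38% of all genes were higher in CLPs and 16.7% lower, 1 of 32 tRNA modification genes was higher (Trit1, 0.57) and 4 were lower, among them Wdr4 (-0.71), a subunit of the tRNA guanine methyltransferase, and Rtcb (-0.69), the tRNA ligase. Of the 3 scaffold genes Aimp2 was higher (0.68), and of the 5 cytosolic elongation factors Eef2, which moves the ribosome along the mRNA, was lower (-0.95). Of the 9 mitochondrial translation factors 2 were lower, the ribosome recycling factor Mrrf (-0.89) and the initiation factor Mtif3 (-0.72). Of the 7 relatives 2 were lower, Dtd1 (-1.31), which removes D-amino acids from tRNA, and Pstk (-0.54), a kinase of selenocysteine tRNA, and none of the 4 amidotransferase and formyltransferase genes passed. Atf4 was at 0.00, and 8 of its 23 listed targets were higher and 8 were lower.

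The question put to the O-NR mice was whether NR changed these cells. In HSCs of cohort 2 no synthetase had an unadjusted p below 0.01 in edgeR, against 0.777% of 17364 genes, and none passed in DESeq2 either. At an unadjusted p below 0.05 there was 1 synthetase, against 4.06% of genes. That gene, Mars2, was at 25.3, 20.3, 26.05 and 26.3 CPM in O-NR HSCs, against the O-WT values above (log2 fold change 0.29, SE 0.12, edgeR adjusted p = 0.995). The groups overlapped, with O-NR replicate 2 below the highest 2 O-WT libraries, and the 95% interval of the log2 difference was 0.03 to 0.55. Lars was at 76.6, 44.5, 56.5 and 66.4 CPM in O-WT HSCs and at 80.3, 55.7, 88.97 and 69.4 CPM in O-NR HSCs (log2 fold change 0.19, 95% interval -0.02 to 0.41). The lowest p values among genes with a negative sign belonged to Cars (-0.13) and Rars (-0.08). Over the 37 genes the log2 fold changes ran from -0.13 to 0.34 with a median of 0.09 against -0.01 over all genes, and no gene had groups that stood apart, against 0.68% of all genes as higher and 0.514% as lower.

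The genes followed throughout had 95% intervals in HSCs that included 0. These were -0.13 to 0.32 for Gars, -0.03 to 0.44 for Kars, -0.10 to 0.40 for Eprs, -0.15 to 0.43 for Qars, -0.26 to 0.27 for Farsa, -0.15 to 0.27 for Farsb, -0.07 to 0.48 for Wars and -0.14 to 0.42 for Lars2. Changes as large as the differences between GMPs and HSCs for Gars, Kars, Eprs and Farsa lie outside these intervals. Among the listed genes outside the synthetases, Mettl1 (log2 fold change 0.61, SE 0.15, edgeR adjusted p = 0.793), which methylates guanine in tRNA together with Wdr4, and Trmt6 (log2 fold change 0.42, SE 0.14, edgeR adjusted p = 0.995) had an unadjusted p below 0.01 and were higher in O-NR HSCs, as was Slc7a5 (log2 fold change 0.57, SE 0.14, edgeR adjusted p = 0.793).

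In CLPs no synthetase passed an unadjusted p below 0.01 in edgeR, against 0.412% of 19909 genes, or below 0.05, against 3.21%, and DESeq2 called none. Yars2 was at 14.6, 14.9, 7.73 and 16.4 CPM in O-WT CLPs and at 17.2, 22.5, 19.6 and 17.9 CPM in O-NR CLPs (log2 fold change 0.45, SE 0.23, edgeR adjusted p = 1.00). Lars was at 74.5, 71.7, 50.5 and 65.3 CPM in O-WT CLPs and at 84.4, 93.5, 76.8 and 78.3 CPM in O-NR CLPs (log2 fold change 0.27, SE 0.18, edgeR adjusted p = 1.00). All O-NR libraries were above all O-WT libraries for these 2 genes, where 1.3% of all genes stood apart as higher and 1.04% as lower. Cars2 and Ears2, for mitochondrial cysteine and glutamic acid, had log2 fold changes of -0.22 (95% interval -0.65 to 0.20) and -0.17 (95% interval -0.70 to 0.36). The median was 0.12 over the synthetases and -0.00 over all genes. Among the listed genes outside the synthetases, Slc7a5 (log2 fold change 0.62, SE 0.20, edgeR adjusted p = 1.00) was higher in O-NR CLPs and Ddit4 (log2 fold change -1.31, SE 0.48, edgeR adjusted p = 1.00), an inhibitor of mTORC1, was lower, both at an unadjusted p below 0.01. CLP O-WT replicate 3, the shallowest library, had the highest receptor sum of cohort 2 and the lowest value of its group for Yars2, Lars and the summed cytosolic and dual CPM, which was 1412, 1264, 837 and 1418 in O-WT CLPs.

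In GMPs no synthetase passed an unadjusted p below 0.01 in edgeR, against 0.986% of 13486 genes, and DESeq2 called none, while 1 had a p below 0.05, against 4.83%. This gene, Farsb, was at 70.6, 65.9, 52.9 and 64.3 CPM in O-NR GMPs and overlapped the O-WT values (log2 fold change 0.20, SE 0.09, edgeR adjusted p = 0.997, 95% interval 0.01 to 0.38). Dars had a log2 fold change of 0.14, Hars of -0.11 and Cars2 of -0.16. The median was 0.03 over the synthetases and -0.00 over all genes, and no synthetase stood apart, against 1.03% of genes as higher and 1.01% as lower. The 95% intervals of the 37 genes lay between -0.38, the lower bound of Cars2, and 0.42, the upper bound of Pars2.

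**Figure D5:**
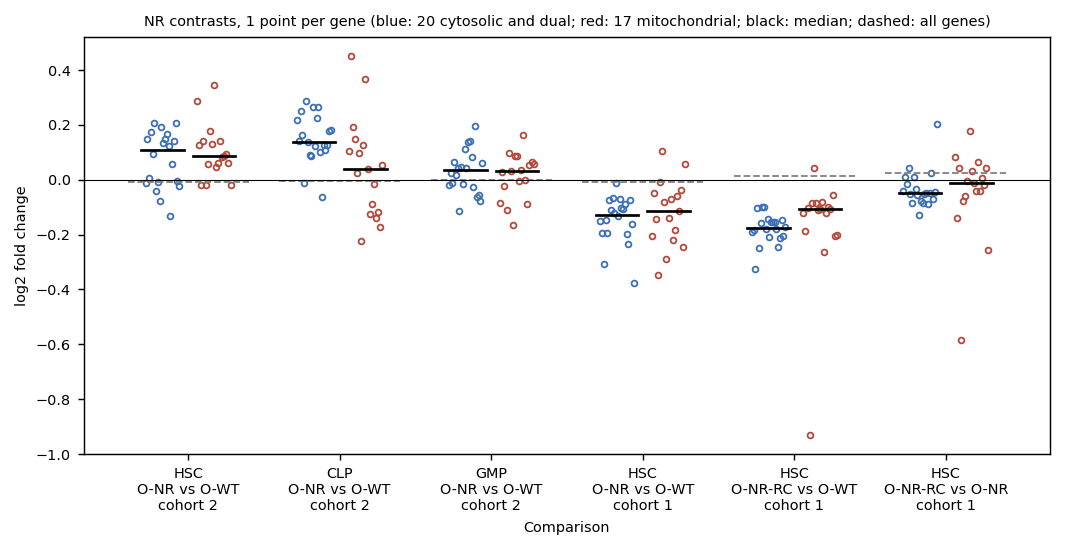
Log2 fold changes of the 37 synthetases, 1 point per gene (blue cytosolic and dual, red mitochondrial), in 6 comparisons of NR or its withdrawal. Black lines mark the medians of the 20 cytosolic and dual genes and of the 17 mitochondrial genes, and dashed lines the median of all genes tested. Medians over all 37 genes, which are not drawn, range from -0.15, for O-NR-RC against O-WT in cohort 1, to 0.12, for O-NR against O-WT in CLPs. No point has an unadjusted p below 0.01.

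The NR effect itself was compared between cell types, with all 24 libraries of cohort 2 in 1 model. No synthetase had an unadjusted p below 0.01 or below 0.05 for HSC against CLP, HSC against GMP or CLP against GMP, where 0.403%, 0.146% and 0.403% of 22573 genes passed 0.01 and 2.3%, 1.41% and 2.9% passed 0.05, and DESeq2 called none. The smallest p values for HSC against CLP were those of Cars2 (difference of log2 fold changes 0.39, adjusted p = 1.00, edgeR) and Rars2 (0.24) on the positive side and of Yars2 (-0.34) and Farsa (-0.24) on the negative side. For HSC against GMP, Mars2 differed by 0.43 (95% interval -0.14 to 1.00) and Cars2 by 0.41 (95% interval -0.18 to 1.01). For CLP against GMP, Yars2 differed by 0.49 (95% interval -0.11 to 1.08) and Hars by 0.33 (95% interval -0.24 to 0.90). Medians over the synthetases were -0.01, 0.13 and 0.16, against -0.02, 0.04 and 0.05 over all genes. The 3 comparisons share libraries, and Farsb and Sars2 (-0.07 and -0.05 for HSC against GMP) and Rars2 and Ears2 (-0.18 and -0.16 for CLP against GMP) were the genes with the smallest p on the negative side.

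Cohort 1 asked what followed when NR was withdrawn. Its 3 comparisons share libraries, and none of them had a synthetase with an unadjusted p below 0.01 or below 0.05 in edgeR, or a call in DESeq2, where 0.048%, 0.036% and 0.078% of 33350 genes passed 0.01 and 0.546%, 0.291% and 0.795% passed 0.05 for O-NR against O-WT, O-NR-RC against O-NR and O-NR-RC against O-WT. The summed cytosolic and dual CPM was 1603 and 1488 in O-WT, 991, 999, 1646 and 1904 in O-NR and 2219, 917 and 969 in O-NR-RC. Libraries below and above both O-WT libraries were found among O-NR as well as among O-NR-RC. The receptor sum was 7309 and 9374 CPM in O-WT, 11686, 11563, 7488 and 7201 CPM in O-NR and 6622, 11547 and 11096 CPM in O-NR-RC, in the same library order, and the lowest synthetase sums came with the highest receptor sums and, as given below for Lars2, with the lowest levels of the rRNA-like row Gm26917.

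Lars2 was at 424 and 421 CPM in O-WT, at 274, 328, 354 and 372 CPM in O-NR and at 320.4, 174 and 170.1 CPM in O-NR-RC. All O-NR and O-NR-RC libraries were below both O-WT libraries, and the O-NR-RC libraries overlapped the O-NR libraries. For O-NR-RC against O-WT the log2 fold change was -0.93 (95% interval -2.10 to 0.24, adjusted p = 1.00, edgeR). For O-NR-RC against O-NR it was -0.58 (95% interval -1.59 to 0.42, adjusted p = 1.00, edgeR). Leaving out each library gave -1.30 to -0.78 against O-WT and -0.95 to -0.43 against O-NR, in both cases the most negative without O-NR-RC replicate 1. The rRNA-like row Gm26917 was at 39946 and 34464 CPM in O-WT, at 19769.8, 21667, 43196 and 51522 CPM in O-NR and at 61099.9, 16039.6 and 18737 CPM in O-NR-RC, lowest in the 2 O-NR-RC libraries that were also lowest in Lars2, and highest in O-NR-RC replicate 1. Leaving the rRNA-like rows out gave -0.93 and -0.58. This alters the scaling of the libraries and not the Lars2 counts, so that it cannot show the part of rRNA-like reads in them. That part was not tested. With the receptor sum as a covariate, chosen after the data were seen, Lars2 was called in both, with -0.85 against O-WT and -0.61 against O-NR. The share of all genes called with this covariate is not given here, so that these calls cannot be set against it. In cohort 2, where no mice were taken off NR, Lars2 was at 227, 119.7, 139 and 194 CPM in O-WT HSCs and at 195, 137, 266 and 191 CPM in O-NR HSCs, which overlapped.

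For O-NR against O-WT in cohort 1 the log2 fold change was negative for 35 of 37 synthetases, with a median of -0.12 against -0.01 over all genes, and Ears2 (-0.25, adjusted p = 1.00, edgeR) and Fars2 (-0.22) had the smallest p on that side, with Wars2 (0.06) on the positive side. Genes of 1 library move together, so that these signs are not separate observations. For O-NR-RC against O-NR the median was -0.04 against 0.02 over all genes, with Wars2 at -0.26, Iars2 at 0.18 and Vars at 0.20. For O-NR-RC against O-WT the median was -0.15 against 0.01 over all genes, with Fars2 at -0.26. Intervals were wide in cohort 1, and that of Gars for O-NR against O-WT was -1.15 to 0.76.

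With the HSC libraries of both cohorts and a term for cohort, no synthetase had an unadjusted p below 0.01 for O-NR against O-WT in edgeR, against 0.103% of 23413 genes, none was below 0.05, against 0.923%, and DESeq2 called none. The median log2 fold change was 0.03 against -0.02 over all genes, with Lars at 0.14 (95% interval -0.12 to 0.40), Vars at -0.15 and Cars at -0.08. The difference in the NR effect between cohorts likewise gave no synthetase below 0.01 or below 0.05, against 0.228% and 1.91% of 31596 genes, and none in DESeq2. The median difference, cohort 2 minus cohort 1, was 0.32 over the synthetases and 0.03 over all genes. Mars2 differed by 0.56 (95% interval -0.07 to 1.20) and Pars2, for mitochondrial proline, by 0.55 (95% interval -0.21 to 1.31).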

How the data were processed

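Total RNA of sorted cells was prepared by the authors with TRIzol and Direct-zol columns and a stranded total RNA pico input kit. Per the labels and the study's methods, the authors trimmed reads with Trim Galore (cutadapt), used STAR for alignment against mm10, and counted reads over Gencode M22 genes by featureCounts. The deposited values are whole-number counts per gene symbol, neither normalized nor pooled, in 33 libraries. The strand setting and the treatment of reads with several positions are not given in the sources used here.

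Genes above 3 CPM in a number of libraries equal to the smallest group or more were kept. They were scaled by TMM within each cohort and compared with edgeR 4.0.16 (quasi-likelihood test, R 4.3.3, limma 3.58.1), with Benjamini-Hochberg adjustment over all genes tested. Cell types were compared in 1 model of the 24 libraries of cohort 2, NR effects in each cell type alone, and cohort 1 as 9 libraries. Calls used an adjusted p below 0.05 between cell types and an unadjusted p below 0.01 for NR. The study's heatmaps used this p with CPM above 3. Its methods also list a fold change above 1.5 and, as an alternative to this p, a false discovery rate below 0.05. CPM were taken on the TMM scale of their cohort, so that cohorts are not compared in level, and RPKM with union exon lengths of Gencode M21. Ratios were compared in Python 3.11.15 (scipy 1.17.1, numpy 2.4.6, pandas 2.3.3) by exact permutation.

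Alternatives were DESeq2 1.42.0, upper quartile scaling, other filters, ribosomal-like rows left out, other sets of libraries, the replicate number as a block, each library left out, and the receptor sum as a covariate. The unwanted-variation correction that the study names was not run. Same-numbered libraries were taken as paired where each correlation of their deviations was above 0.1. Among the pairs of groups with at least 3 shared numbers this held for O-WT HSC and O-WT CLP alone (0.12 to 0.46), and there the block left the count of calls at 4. No 2 libraries agreed within sampling noise (smallest chi-square per degree of freedom 1.91 within a group, 1.78 between groups), and all were kept.

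Named synthetases were up to 5 per direction with the largest change among those called between cell types, in each NR comparison those with p below 0.01 and the 2 lowest in p for either direction, and Lars2, Gars, Kars, Eprs, Qars, Farsa, Farsb and Wars throughout. Others were chosen after their values were seen. For 1 synthetase, counted in the totals, no values of its own are reported here. From the other lists up to 2 genes per list and comparison were named. The members and lists were chosen with earlier results of these data known. The fits were tested on simulated data.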

Additional observations from a re-analysis of the deposited data

Results flagged for a closer look

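Over the 29 synthetases that the naming rule gave and 2 summed levels, in groups of 4 libraries, 6 of 217 combinations of a value and a group held 1 library far from the other 3 (Dixon's test at the 95% level), where chance alone marks about 1 in 20. Farsa was at 142 CPM in GMP O-WT replicate 2, against 113 to 116 CPM in the other 3 O-WT GMP libraries. Lars2 was at 417 CPM in GMP O-WT replicate 1, against 307 to 325 CPM. Kars was at 140.0 CPM in CLP O-NR replicate 2, against 93.0 to 99.4 CPM. In HSC O-NR replicate 2, Nars was at 41.0 CPM against 63.8 to 66.0 CPM, Sars at 40.6 CPM against 67.3 to 71.1 CPM, and Mars2 at 20.3 CPM against 25.3 to 26.3 CPM. That library also had the highest olfactory and vomeronasal receptor sum of its group, 3019 CPM, whose part in these values was not tested.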

How the results depend on the processing

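Synthetases called between GMPs and HSCs numbered 23 to 31 and those between GMPs and CLPs 24 to 31 under all alternatives but 1, the receptor sum as a covariate, which gave 13 for GMPs against CLPs. The 4 calls between CLPs and HSCs became 15 with upper quartile scaling, 11 with the receptor sum as a covariate, 8 in O-WT libraries alone, 7 without the ribosomal-like rows and 7 within O-NR, and 3 to 7 when each library was left out, with 7 without HSC O-WT replicate 4 and 7 without CLP O-WT replicate 3. The scale of all genes moved too, by 0.20 and 0.21 in the median with DESeq2 for GMPs against HSCs and against CLPs, and by -0.24, 0.24 and -0.47 with upper quartile scaling for GMPs against HSCs, CLPs against HSCs and GMPs against CLPs. For most alternatives the share of all genes called is not given here. NR and withdrawal comparisons had 0 calls under nearly all alternatives. The exceptions were 1 call, Lars2, for each comparison of O-NR-RC with the receptor sum as a covariate, and the block below. With the replicate number as a block, 15 synthetases were called for the difference between cohorts, where all genes called went from 72 to 5158. Correlations of the deviations of same-numbered libraries were -0.40 to 0.71 in cohort 2 and -0.48 to 0.48 in cohort 1. They did not show that the numbers pair those libraries, and so few libraries cannot exclude it. The block changed no other count of calls by over 1.5 times. Its Mars2 difference was 0.75 and its Wars2 difference 0.23, and Wars2 for O-NR against O-WT in cohort 1 was -0.0570 with the block.

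Some small differences changed sign, none of them past the threshold. For the NR effect in HSC against GMP, Sars2 was 0.0173 with DESeq2, 0.0265 with a filter at 1 CPM and 0.0116 without a filter, and Farsb was 0.0034 at 1 CPM. For CLP against GMP, Ears2 was 0.0014 at 1 CPM. For the difference between cohorts, Wars2 was 0.0576 with DESeq2, 0.0198 at 1 CPM, 0.0140 without a filter and 0.0018 without the ribosomal-like rows, and -0.13 to 0.11 when each library was left out. In cohort 1, leaving out each library gave, for O-NR against O-WT, -0.0256 to 0.14 for Wars2, and for O-NR-RC against O-NR, -0.49 to 0.42 for Iars2 and -0.85 to 0.53 for Vars, the lowest for both without O-NR-RC replicate 1. The cause of these changes was not tested. Depth was lowest in CLPs and widest between libraries of cohort 1, and intervals cover the spread between libraries only.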
